A study of Mus musculus with 564 samples.

Results

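The 6 STAT transcription factor genes described here were Stat2, Stat3, Stat4, Stat5a, Stat5b and Stat6, and their regulatory regions were followed in mouse bone marrow-derived macrophages (BMDM), that is, macrophages grown in culture from bone marrow precursors. The readout was H3K27ac, an acetyl mark of histone H3 found at active promoters and enhancers, measured by ChIP-seq at cis-regulatory elements (CREs) set by accessible chromatin. A CRE was taken as belonging to a STAT gene when its centre lay within 25 kb of a RefSeq transcription start of that gene in mm10, which gave 28 of the 59190 CREs. The rule used position only and no measured value. Stat2 had 4 CREs in reach, Stat3 4, Stat4 5, Stat5a 4, Stat5b 8 and Stat6 7. Stat5a and Stat5b are neighbours, and 4 CREs lay within reach of both. Each CRE is named here after its nearest STAT gene and numbered along the chromosome, so Stat3_2 is the second CRE of Stat3.

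STAT proteins wait in the cytoplasm until a Janus kinase bound to a cytokine receptor phosphorylates them on tyrosine, after which they pair and enter the nucleus. STAT2 acts with IRF9 in the complex that answers type I interferon. STAT3 carries signals of IL-6 and IL-10, STAT4 those of IL-12, STAT5A and STAT5B those of GM-CSF and IL-3, and STAT6 those of IL-4 and IL-13. In macrophages, LPS (bacterial lipopolysaccharide) acts through TLR4 and induces interferon-beta, so that STAT signaling follows secondarily, while IL-4 engages JAK and STAT6 directly.

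The BMDM came from wild-type young adult male C57/BL6 mice. For 1 h beforehand, the cells received either the solvent DMSO or a clinical kinase inhibitor (CKI, 58 compounds), each at its own concentration. They were then left untreated (UT) or given 10 ng/mL LPS or 10 ng/mL IL-4 for 0.5, 1, 2 or 4 h. There were 18 DMSO libraries, 2 in each of 9 groups, and 546 CKI libraries, with 1 or 2 for each CKI, stimulus and time. The labels do not say whether the 2 DMSO libraries of a group came from separate cultures, so p-values measure the spread between these libraries, which may be technical. Spi1 (2046 to 2118) and Itgam (606 to 666), macrophage markers, had high normalized read counts at their promoter CREs in the 2 untreated DMSO libraries. Csf1r, Cd68 and Adgre1 were covered by a CRE spanning a start, and no CRE of the 3 T cell or 2 B cell markers was found. Of the fibroblast markers, Col1a1 was at 3 to 4 and Col1a2 had no CRE.

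Libraries differed in contrast, a ratio whose numerator is the median over the top 10% of CREs by level and whose denominator is that over the bottom 10%. It was 53.0 to 133.7 in DMSO and 3.34 to 67.17 in CKI libraries (medians 75.1 and 17.56). CKIs fell into 6 runs of neighbouring columns in the deposited table, with median contrasts between 11.2 and 35.1. Scaled totals ran from 4066894 to 12391409 per library, but read depth before scaling is unknown. All values below are read counts normalized by the authors, and all log2 differences are on the scale of log2(value + 5), which understates changes of weak CREs. Tests used limma over all CREs with Benjamini-Hochberg adjustment.

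Sequences are shown for the CREs on which the results turn, taken from the GRCm38.p6 reference (the RefSeq assembly of mm10), plus strand, with STAT and interferon-type words in capitals. The words, sought on both strands, were the STAT dimer word TTCNNNGAA, its longer-spaced form that STAT6 prefers (TTC and GAA with 4 bases between), the interferon-type word (GAAA repeated with 2 bases between) and the AP-1 word TGANTCA. The first is the strongly LPS-induced intronic CRE of Stat3 (chr11:100931593-100931892, centre of Stat3_2), with overlapping interferon-type words on the minus strand. The next is an LPS-induced intronic CRE of Stat5b (chr11:100846637-100846936, Stat5b_5), with the STAT dimer word and an AP-1 word, the latter left in lower case. The third is the upstream Stat6 CRE that fell furthest after LPS (chr10:127631914-127632213, Stat6_2), which holds none of these words. The 2 short sites are from the Stat2 promoter (chr10:128270272-128270301) and the Stat5a promoter CRE (chr11:100861284-100861313).
Stat3_2: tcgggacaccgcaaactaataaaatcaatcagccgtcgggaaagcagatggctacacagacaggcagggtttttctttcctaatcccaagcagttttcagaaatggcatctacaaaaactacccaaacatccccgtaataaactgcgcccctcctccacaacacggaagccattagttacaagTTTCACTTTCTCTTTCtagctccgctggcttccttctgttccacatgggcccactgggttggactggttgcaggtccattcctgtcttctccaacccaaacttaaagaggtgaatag
Stat5b_5: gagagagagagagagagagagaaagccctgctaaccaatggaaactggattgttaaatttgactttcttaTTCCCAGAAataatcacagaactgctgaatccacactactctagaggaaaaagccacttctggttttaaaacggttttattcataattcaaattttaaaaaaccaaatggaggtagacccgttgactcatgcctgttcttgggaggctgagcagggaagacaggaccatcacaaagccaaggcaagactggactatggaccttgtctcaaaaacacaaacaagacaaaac
Stat6_2: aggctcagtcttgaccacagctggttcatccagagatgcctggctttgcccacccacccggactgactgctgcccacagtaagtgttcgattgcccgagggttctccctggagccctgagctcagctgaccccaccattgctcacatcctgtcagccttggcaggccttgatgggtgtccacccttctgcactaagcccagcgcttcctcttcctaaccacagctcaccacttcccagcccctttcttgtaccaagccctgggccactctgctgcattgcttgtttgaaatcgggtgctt
Stat2 site: ctggTTTCAGTTTCctTTCCCTAGAActca
Stat5a site: ggctagagacTTCTGTGGAAcaaatgactt

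In the Stat2 site the interferon-type word (TTTCAGTTTC as read on the plus strand) is followed by the longer-spaced STAT word TTCCCTAGAA. The Stat5a site holds the longer-spaced word TTCTGTGGAA inside an intron. Among the 300-base windows centred on the 28 STAT CREs, TTCNNNGAA occurred in 1, against 9.4% of all 59190 windows. The longer-spaced word occurred in 4 (14.3%, against 9.21% of all windows and 6.95% of 32851 promoters). The interferon-type word occurred in 2, Stat3_2 and Stat6_5, against 5.13% of all windows and 3.44% of promoters. The Stat2 site was picked for its words from the promoter sequence. It lies within Stat2_2 but outside the centre window, which holds neither word. An interferon-type word (GAAAGTGAAA) also occurred in a Stat4 promoter sequence, at a gene without a CRE centred within 1 kb of a start. TGANTCA occurred in 4, against 20.2% of all windows. A match describes letters only, and was not tested as a binding site.

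STAT genes differed in resting acetylation, and their starts were not equally covered. In untreated DMSO cells, promoter CREs per kb of CRE ranked Stat6_4 (mean 187.5 counts per kb), Stat5b_3 (169.0), Stat2_2 (127.9), Stat3_3 (102.3) and Stat5a_1 (54.4). The 2 libraries of neighbours in this order did not overlap, and no test was made with 2 values each. Stat6_4 was above 96.8% and Stat5a_1 above 71.5% of all CREs. The place of Stat5b in this order holds for the CRE at its internal start. Stat5b_6, 378 bp from the upstream start, had 39.0 counts per kb, below Stat5a_1. Stat4, which in lymphocytes drives IL-12 responses, had no CRE centred within 1 kb of a start. Its CRE with the highest level, Stat4_4 (chr1:52010690-52013682, intron, 3946 bp from a start), had 27.1 counts per kb, above 56.1% of all CREs. Stat4_1 and Stat4_3 had 2.5 counts per kb each, below most other CREs.

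LPS changed 15 of the 25 STAT CREs that passed a mean value of 10, with 7 higher and 8 lower than in untreated cells (moderated F over 4 times, adjusted p under 0.01 and a log2 difference over 1 at any time). Of all 50697 CREs tested, 53.5% were called, 29% as higher and 24.6% as lower. The 15 of 25 therefore lay near the background. The other 10 comprised 2 that passed the p only and 8 that passed neither. The largest absolute log2 difference of a STAT CRE had a median of 1.31, against 1.19 over all CREs. By gene, Stat3 had 1 CRE called, higher, Stat5a 1, higher, and Stat6 4 lower and 1 higher. Stat5b had 3 higher and 2 lower, Stat2 1 of each and Stat4 1 lower.

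Stat5a, the GM-CSF effector gene, had the strongest rise of the STAT promoters. Stat5a_1 (chr11:100859529-100862875, 718 bp downstream of the nearest Stat5a start, with other starts further upstream) had 184 and 180 in the untreated libraries. After LPS the values were 361 and 309 at 0.5 h, 795 and 793 at 1 h, 979 and 1017 at 2 h and 787 and 729 at 4 h. Every LPS library was above both untreated ones, with a mean 5.48 times that of untreated cells at 2 h (log2 difference 2.42 ± 0.11 SE, n = 2 libraries per group, limma adjusted p = 8.07e-20). After IL-4 the values stayed between 190 and 250, and no call was made (0.43 ± 0.13, limma adjusted p = 0.0176).

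Stat5b sits beside it and lost acetylation at 1 promoter while gaining it at another. At Stat5b_3 (chr11:100821750-100823403, 6 bp from an internal start), LPS took 293 and 266 to 127 and 133 at 0.5 h. Values then returned part of the way, to 244 and 202 by 4 h. The 0.5 h fall was -1.07 ± 0.16 (limma adjusted p = 4.64e-06), and all 8 LPS libraries were below both untreated ones. With a pseudocount of 20 the fall was -1.0 and missed the size. At the upstream start, Stat5b_6 rose instead, from 103 and 86 to 236 and 244 at 2 h (1.31 ± 0.17, limma adjusted p = 1.37e-09).
The intronic Stat5b_5 went from 48 and 41 to 246 and 265 at 2 h (2.40 ± 0.22, limma adjusted p = 7.16e-14). Stat5b_4, 4252 bp from the internal start, fell from 171 and 166 to 36 and 28 at 0.5 h and was still at 62 and 44 at 4 h. Opposite changes therefore lay within 1 gene.

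Stat2, the interferon partner of IRF9, first fell and then rose at its promoter. Stat2_2 (chr10:128269544-128271388, 32 bp upstream of the start, also overlapping exons of Apof) had 230 and 242 in untreated cells. LPS libraries had 137 and 213 at 0.5 h, 434 and 415 at 1 h, 760 and 701 at 2 h, and 762 and 726 at 4 h. The 4 h values were 3.15 times the untreated mean (1.64 ± 0.14, limma adjusted p = 4.13e-16). At 0.5 h the 2 LPS libraries were unequal, and both were below the untreated ones.
The intergenic Stat2_1, 11412 bp upstream, lies nearer to the start of Apon (4955 bp). It moved the other way, from 161 and 172 to 22 and 29 at 1 h (-2.50 ± 0.28, limma adjusted p = 8.24e-09). Its values were 98 and 64 at 4 h.

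Stat3, which transmits IL-6 and IL-10 signals, had its largest LPS change in an intron. Stat3_2 (chr11:100930969-100932516, 7798 bp inside the gene) had 83 and 81 in untreated cells, 66 and 60 at 0.5 h, 118 and 108 at 1 h, 331 and 308 at 2 h, and 273 and 290 at 4 h. This was a 3.9-fold higher mean at 2 h (1.90 ± 0.17, limma adjusted p = 1.24e-14). At the promoter, Stat3_3 (chr11:100937528-100940654) reached 606 and 626 at 4 h from 309 and 331. That difference of 0.93 ± 0.12 passed the p (limma adjusted p = 1.41e-08) and not the size. With library contrast as a covariate it was 1.17 and was called.

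Stat6, the IL-4 effector gene, lost acetylation at most of its region after LPS. The promoter CRE Stat6_4 (chr10:127641126-127644819, 14 bp from the start) rose from 694 and 691 to 1003 and 1037 at 0.5 h. It returned to 741 and 704 at 1 h, fell to 258 and 311 at 2 h and was at 544 and 510 at 4 h. The 2 h difference was -1.27 ± 0.11 (limma adjusted p = 1.91e-15).
Upstream CREs fell further. Stat6_2, 10923 bp upstream and as near to the start of Lrp1 (10915 bp), went from 453 and 436 to 49 and 53 at 2 h, 0.115 of the untreated mean (-3.01 ± 0.18, limma adjusted p = 1.37e-16). Stat6_3, 6949 bp upstream, went from 359 and 323 to 73 in both libraries. Stat6_1, which lies 536 bp from the start of Lrp1, went from 596 and 629 to 106 and 92. Stat6_6, inside an intron of the neighbour Nab2, was higher at 0.5 h (282 in both libraries against 138 and 127).

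Stat4_4 was the sole Stat4 CRE called. It fell from 85 and 77 to 24 and 32 at 2 h after LPS (-1.39 ± 0.28, limma adjusted p = 0.00115). Without the first untreated library the difference was -1.32 with adjusted p = 0.025, and without the second -1.46 with adjusted p = 0.012, so the call rested on both. With library contrast as a covariate the adjusted p was 0.0121.

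**Figure D1:**
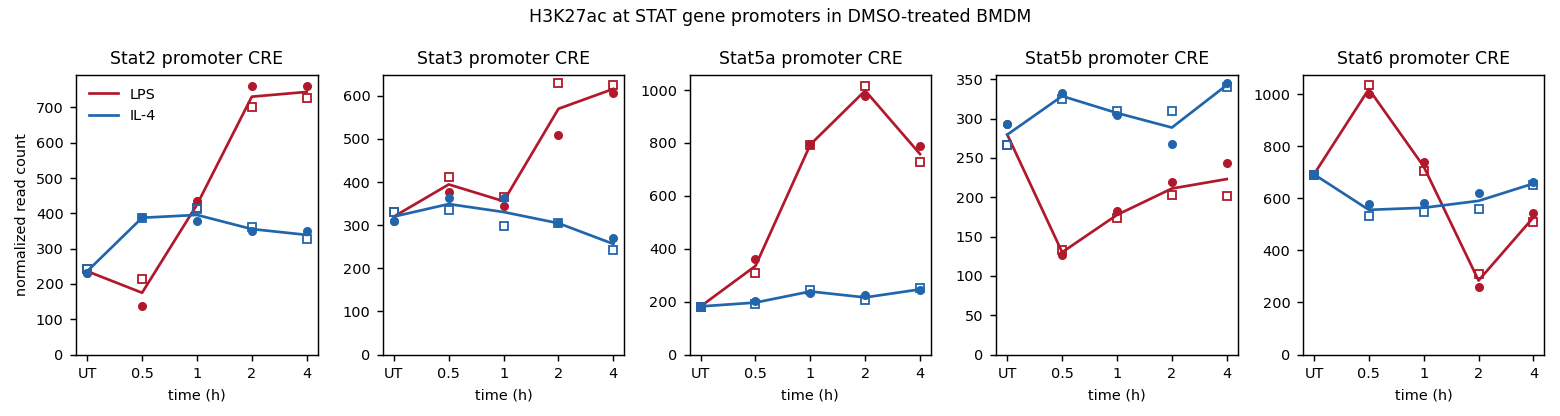
H3K27ac normalized read counts (y axis) at 5 STAT promoter CREs of DMSO cells against time after LPS (red) or IL-4 (blue) in hours. Filled circles are replicate 1, open squares replicate 2 and lines their mean, and Stat5a_1 after LPS climbs to 979 and 1017 at 2 h while Stat6_4 falls to 258 and 311.

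IL-4 changed far fewer STAT CREs. It lowered 3 of the 23 tested and raised none, against 24.7% of 47018 CREs called (13.6% higher, 11% lower). A further 8 passed the p and not the size. Stat6_3 fell from 359 and 323 to 218 and 179 at 0.5 h, 110 and 146 at 1 h, 67 and 109 at 2 h and 126 and 106 at 4 h. This fall (-1.93 ± 0.17, limma adjusted p = 6.03e-13) was close to that after LPS. Stat6_1 fell to 261 and 226 at 0.5 h (-1.32 ± 0.12, limma adjusted p = 1.93e-13), and Stat4_4 to 13 and 21 at 4 h (-1.99 ± 0.30, limma adjusted p = 1.12e-06). Without replicate 2 at 0.5 h or at 4 h the count was 5.
The Stat6 promoter itself did not pass the size. It had 578 and 534 at 0.5 h and 662 and 652 at 4 h, and all 8 IL-4 libraries were below both untreated ones (largest -0.32 ± 0.09, limma adjusted p = 0.00587). Stat2_2 was above the untreated libraries at all 4 times, with 389 and 386 at 0.5 h (largest 0.73 ± 0.11 at 1 h, limma adjusted p = 4.54e-07), also short of the size.

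The direct test of LPS against IL-4 at matched times called 17 of 23 STAT CREs, 10 higher in LPS and 7 lower, against 58.4% of all CREs (29.2% higher, 29.2% lower). All 4 Stat3 CREs were called as higher in LPS at their largest difference. Stat3_3 differed by 1.25 ± 0.12 at 4 h (limma adjusted p = 6.36e-13), since IL-4 took it to 270 and 243 while LPS took it to 606 and 626. Stat5a_1 differed by 2.18 ± 0.12 at 2 h (limma adjusted p = 1.49e-24) and Stat6_2 by -2.27 ± 0.16. Stat6_3, lowered by both, was not called (limma adjusted p = 0.0167). Stat2_2 was lower in LPS at 0.5 h (-1.16 ± 0.13) and higher at 4 h (1.12 ± 0.13).

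**Figure D2:**
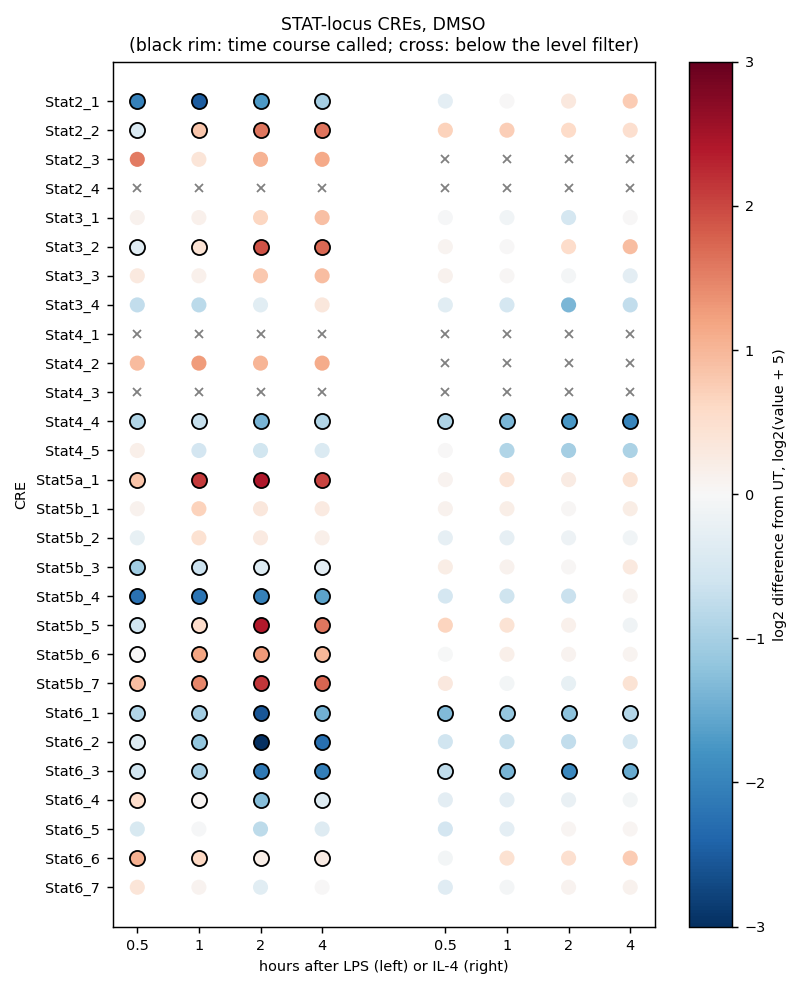
Log2 difference from untreated DMSO cells (colour) for the 28 STAT CREs (rows) at each time in hours after LPS (left) or IL-4 (right). A black rim marks a called time course and a cross one below the level filter, and Stat6_1 to Stat6_4 are lowest at 2 h of LPS (-1.27 to -3.01).

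Other genes of the pathway were read at promoter CREs, which 31 of 35 had. Of these, 12 were called after LPS (9 higher, 3 lower) and 5 after IL-4 (all higher), each a smaller share than the 53.5% and 24.7% of all CREs. Among 4 Janus kinases, 2 rose after LPS. Jak2, the kinase of the GM-CSF and interferon-gamma receptors, went from 235 and 255 to 1657 in both libraries at 2 h (2.73 ± 0.09, limma adjusted p = 6.53e-23). The 7 feedback inhibitors had 3 higher. Socs1 went from 251 and 274 to 1501 and 1418 (2.45 ± 0.11), and Socs3 rose by 2.37 ± 0.10 at 4 h. The 11 receptor chains had 2 higher and 2 lower, Il6ra falling from 829 and 881 to 229 and 246 (-1.83 ± 0.12) and Ifngr1 by -1.06 ± 0.13. Of 8 phosphatase and PIAS genes, 2 rose and Ptpn6 fell (-1.05 ± 0.14).
Irf9, the partner of STAT2, was at 0.87 ± 0.12 and not called. After IL-4, Socs2 went from 37 and 31 to 304 in both libraries (2.99 ± 0.15, limma adjusted p = 4.53e-22). Socs1 reached 1348 and 1191 (2.25 ± 0.08), and Jak2 rose by 1.22 ± 0.10 at 1 h. None of the 11 receptor chains with a promoter CRE was called after IL-4. Il4ra, Il13ra1, Il12rb1 and the feedback inhibitor Cish had no CRE centred within 1 kb of a start and were not tested. A CRE spanning a start of Il4ra had 584 to 616 in untreated DMSO cells and was not followed here.

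Promoters most like the STAT ones over the 9 DMSO group means were, as a description, Gm12250 (r = 0.986), Naa25 (0.978) and Zbp1 (0.975) for Stat2, of 1256 considered. For Stat5a they were Heg1 (0.991), Shisa3 (0.990) and Il7 (0.984), for Stat3 I830077J02Rik (0.969), Isg20 (0.961) and Grina (0.957), for Stat5b Zfp219 (0.979), Nlrp1a (0.976) and Trmt12 (0.976), and for Stat6 Slc8b1 (0.959), Slc38a1 (0.918) and Map3k5 (0.909). Between STAT promoters, Stat6 and Stat2 ran opposite (r = -0.83 over the same 9 means) and Stat5a and Stat3 together (r = 0.78). These 9 means share cells and libraries.

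The time courses were also fitted in the CKI libraries, where each CKI was compared with its own untreated library. In that fit, 11 of 28 STAT CREs were called after LPS (5 higher, 6 lower), against 28.9% of all CREs (15.4% higher, 13.5% lower), and 2 after IL-4 (both lower), against 8.84% (5.33% higher, 3.5% lower). All 11 were among the 15 of DMSO cells with the same direction. The other 4 of the 15 were not called. Stat5b_3 (-0.98), Stat5b_6 (0.79) and Stat6_6 (0.43) passed the p and not the size. Stat4_4 passed neither (-0.19, limma adjusted p = 0.205), and at 2 h it was higher with 24 CKIs and lower with 31. Stat5a_1 was higher at 2 h of LPS with 55 of 55 CKIs (median log2 1.70), from 0.66 with BMS911543 to 2.97 with Lapatinib. Stat2_2 was higher with 54 of 55 (median 1.14). Stat6_4 and Stat6_2 were lower with 55 of 55 (medians -1.18 and -2.58). Stat3_2 was higher with 54 of 55 (median 1.21) and lower with Filgotinib (-0.66).
After IL-4, Stat6_3 was lower at 2 h with 56 of 56 CKIs (median -1.42). Run medians spread widely, for example 1.12 to 2.61 for Stat5a_1, and were not equal between runs of differing contrast, whose part was not tested.

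**Figure D3:**
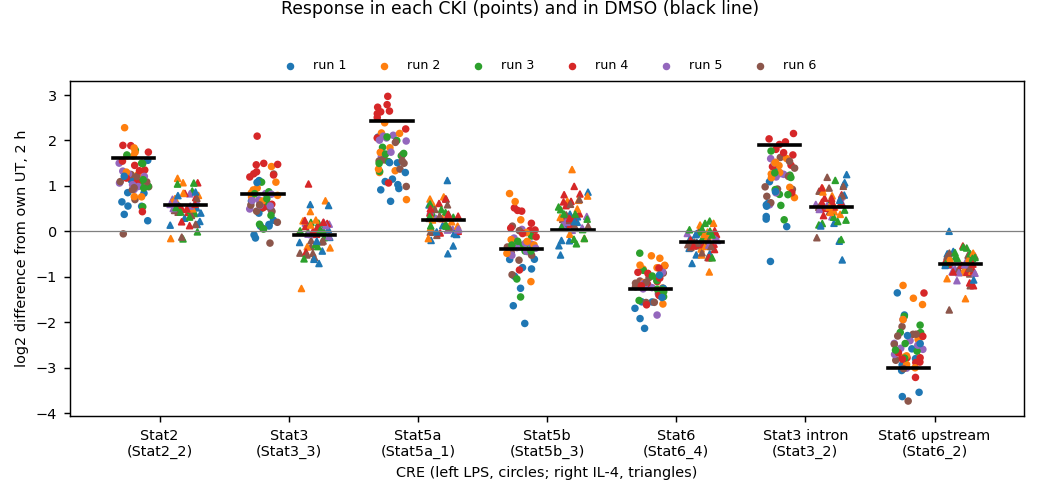
Log2 difference at 2 h from the own untreated library, for every CKI (1 mark each, coloured by run) at 5 STAT promoters, Stat3_2 and Stat6_2, with DMSO as a black line. Circles are LPS and triangles IL-4, and all 55 LPS marks of Stat5a_1 lie above 0 and all 55 of Stat6_2 below.

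Each CKI was also set against DMSO over the untreated and LPS libraries together, averaged over times, and likewise for IL-4. For pairs of a STAT CRE and a CKI, "after LPS" and "after IL-4" name these pooled fits. Differences present before stimulation therefore count in them, and the same untreated libraries enter both. After LPS, 433 of 1624 pairs were called (26.7%, 318 higher and 115 lower). A call needed an adjusted p under 0.05 and a log2 difference over 0.5. Over all CREs 36.4% of pairs were called (32.3% higher, 4.04% lower). After IL-4 it was 503 pairs (31%, 476 higher), against 39.2% (36.2% higher, 3.03% lower). Direction moved with the resting level of the CRE. That level came from the untreated DMSO libraries, which are also part of the DMSO reference, so the level and the difference share values. All CKIs also share this reference, so pairs are not separate observations, and the split by level is a description without a test. The 6 STAT CREs under 10 counts per kb, among them Stat4_1 and Stat4_3, had 215 higher and 0 lower pairs after LPS. The 9 over 100 counts per kb had 13 higher and 79 lower, and 7 of their 9 medians were below 0. Stat2_2 had 23 lower pairs (median -0.48). DMSO libraries also had the higher contrast (53.0 to 133.7), and the part of contrast in these pairs was not tested beyond a fit with it as a covariate, chosen after seeing the data. That fit called 67 pairs after LPS (41 higher, 26 lower) and 52 after IL-4 (33 higher, 19 lower). Over all CREs and CKIs the median log2 difference from DMSO was 0.39 after LPS and 0.41 after IL-4. With quantile normalization it was 0 after each, and 45 (15 higher, 30 lower) and 68 (53 higher, 15 lower) pairs were called. The share of all pairs called was not counted in the covariate and quantile fits, so their counts are not set against a background. In the DMSO time courses, quantile normalization moved the median of all CREs by up to 0.18.

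**Figure D4:**
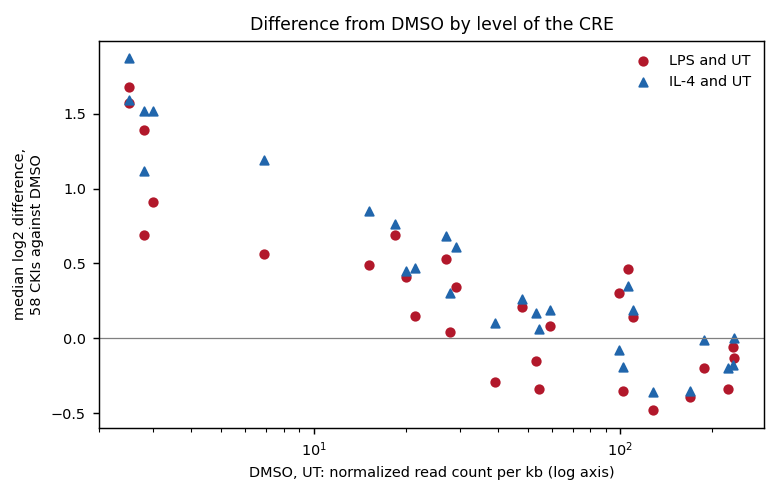
Median log2 difference of the CKIs from DMSO (y axis) for each STAT CRE against its untreated DMSO value per kb (x axis, log scale). The fits pooled untreated with LPS or with IL-4 libraries, and the untreated DMSO libraries enter both axes. The weakest CREs are at 0.56 to 1.68 after LPS and 7 of the 9 strongest lie below 0.

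Fewer pairs were called against the other CKIs of the same run, again with untreated and stimulated libraries pooled. After LPS there were 20 (7 higher, 13 lower), against 1.15% of all pairs (0.742% higher, 0.406% lower). After IL-4 there were 17 (11 higher, 6 lower), against 1.25% (0.848% higher, 0.4% lower). The p38 inhibitor PH797804 supplied 15 and 8 of these, and its libraries had the lowest median contrast of its run (10.3, others 17.14 to 39.6). Its called share over all CREs was 42.6% after LPS and 40.7% after IL-4. Without its libraries, 8 and 9 pairs were called. Quantile normalization gave 3 higher and 14 lower after LPS and 10 higher and 9 lower after IL-4, and the contrast covariate 1 higher and 8 lower, and 4 higher and 6 lower. The share of all pairs called was not counted in these alternative fits. The 15 calls of PH797804 after LPS were 5 higher and 10 lower. The higher ones were the weak CREs Stat4_1 to Stat4_4 and Stat2_4, up to 1.54 ± 0.34 at Stat4_3. The lowest was Stat2_2 (-1.36 ± 0.17, limma adjusted p = 5.46e-12), and Stat5a_1 was at -0.78 ± 0.16. Its 8 calls after IL-4 were all higher, up to 1.65 at Stat4_2. At Stat3_3, Stat5b_3 and Stat6_4 it was also the lowest CKI after LPS (-0.44, -0.49 and -0.54).
The highest CKIs after LPS were Refametinib at Stat2_2 (0.40), Apatinib at Stat3_3 (0.35), ONO4059analogue at Stat5a_1 (0.36), BGT226 at Stat5b_3 (0.43) and IMD0354 at Stat6_4 (0.24), none of them called. Other called pairs after LPS were Afatinib at Stat3_2 (-0.58), BMS911543 at Stat3_1 (-0.79), BGT226 at Stat5b_7 (0.79), Mubritinib at Stat5a_1 (-0.55) and Pacritinib at Stat4_4 (0.70).
After IL-4, Afatinib (-0.59) and MK2206 (-0.57) were lower at Stat2_1, Omipalisib was lower at Stat6_6 (-0.55) and higher at Stat5b_6 (0.65), BGT226 was lower at Stat6_5 (-0.60) and Stat6_6 (-0.54) and higher at Stat5b_7 (0.84), Filgotinib was higher at Stat6_5 (0.59) and Pimasertib lower at Stat4_4 (-0.92).

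The 6 JAK inhibitors (BMS911543, Filgotinib, Momelotinib, Pacritinib, Ruxolitinib and Tofacitinib, by their designated targets) bear on whether blocking the kinases upstream of STATs went with altered acetylation at STAT genes. No STAT CRE passed the test of this class against the other CKIs. In limma with 1 value per CKI and run as a term, 0 of 28 CREs passed in the 2 and 4 h LPS libraries, with 2 at raw p under 0.05, and 0 of 28 in IL-4, with 1 at raw p under 0.05. Over all CREs 0.00169% were called in late LPS and 0% in IL-4, with 2588 of 59169 and 2808 of 59156 at raw p under 0.05. The difference at Stat5a_1 in late LPS was -0.24 ± 0.13 (95% interval -0.50 to 0.02), at Stat3_2 -0.22 ± 0.12 (-0.46 to 0.02) and at Stat2_2 -0.07 (-0.35 to 0.21). The LPS response of Stat3_2 over the own untreated library had a median of 0.60 (-0.66 to 2.15) with JAK inhibitors at 2 h. With the other CKIs it was 1.24 (0.10 to 2.04). At 4 h these were 0.82 (-0.02 to 1.61) and 1.20 (0.14 to 1.99), a description without a test. At 2 h, Stat5a_1 had medians of 1.62 with JAK inhibitors and 1.70 with the others. The same medians were 1.05 and 1.21 at Stat2_2 and 0.62 and 0.67 at Stat3_3. At Stat5b_3 they were -0.62 and -0.31, and at Stat6_4 -1.45 and -1.14. In IL-4 the Stat2_2 difference was -0.18 ± 0.06 (-0.30 to -0.05, limma adjusted p = 0.849). The interval at Stat5a_1 reaches -0.50, so a lower level of that size was not resolved.
Members of the class differed from one another. Against their run peers, Stat5a_1 in late LPS was at -0.96 with Pacritinib, -0.30 with Momelotinib and Ruxolitinib, -0.10 with BMS911543, 0.09 with Filgotinib and 0.21 with Tofacitinib. Stat3_2 was at -0.59 with Filgotinib, -0.45 with Pacritinib, -0.44 with Momelotinib, -0.27 with Ruxolitinib, 0.20 with Tofacitinib and 0.30 with BMS911543. Stat2_2 in IL-4 was lower with 5 of the 6, from -0.32 with Tofacitinib to -0.11 with Momelotinib, and 0.12 with Pacritinib. Concentrations differed between the compounds, so these values stand side by side without a test.

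**Figure D5:**
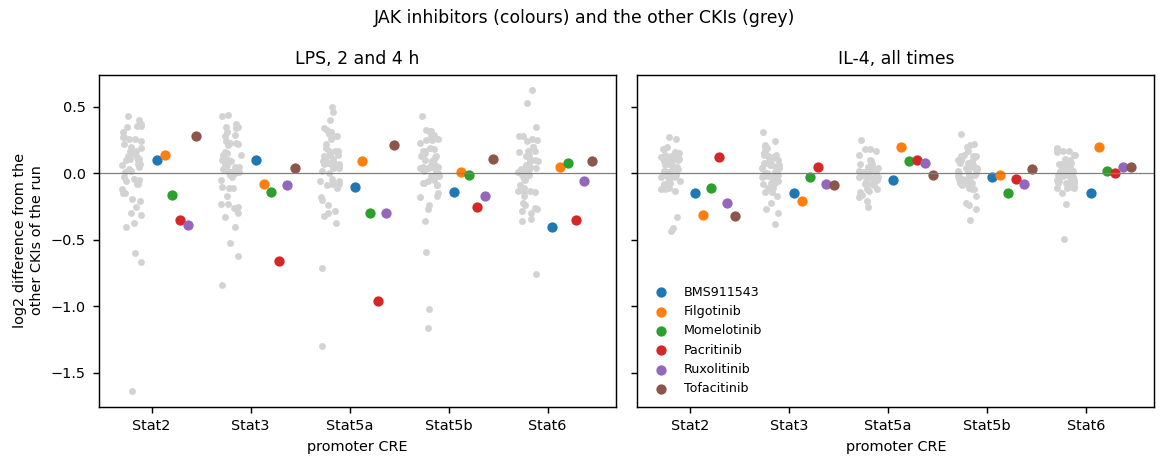
Log2 difference of each JAK inhibitor from the other CKIs of its run at STAT CREs, in late LPS (2 and 4 h) and IL-4, with the other CKIs in grey. Pacritinib, 3 of 10 from the lowest in library contrast of its run, lies at -0.96 at Stat5a_1 in late LPS.

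Of the other classes, p38 inhibitors gave 1 STAT call in late LPS, Stat4_3 (0.97 ± 0.30, 4 CKIs, limma adjusted p = 0.0486), against 3.98% of all CREs. At raw p under 0.05 there were 11 of 28 STAT CREs, and 19639 of 59169 over all CREs. Against run peers, Stat4_3 was at 2.45 with PH797804 and 1.98 with Losmapimod, whose late LPS value is a single 4 h library, while VX702 (-0.35) and Talmapimod (-0.43) went the other way, and in DMSO cells Stat4_3 never exceeded 16. Without Losmapimod or without PH797804 no call was left. Without Talmapimod there were 10 and without VX702 13. In IL-4 the class gave 0 (background 0%). PI3K/mTOR inhibitors gave 0 STAT calls in late LPS and in IL-4, against 0.108% and 0.194%, with 3 and 2 STAT CREs at raw p under 0.05 (over all CREs 5501 of 59169 and 7215 of 59156). RAF/MEK/ERK inhibitors gave 0 and 0 (background 0% in each), with 2 and 1 at raw p under 0.05 (over all CREs 3204 and 2668). ERBB inhibitors gave 0 and 0 (background 0% in each), with 0 at raw p under 0.05 (over all CREs 1120 and 1325).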

How the data were processed

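H3K27ac ChIP-seq was measured in 564 libraries. The authors trimmed single-end reads, mapped them to mm10 (ShortStack; their processing notes name Bowtie and SAMtools, versions not given in the sources used here), counted reads around ATAC-seq summits and scaled libraries on invariant peaks. The deposited values are rounded normalized read counts and were treated as a score, not as raw counts, so no count model was used. Depth per library before scaling is unknown, and no interval for counting error is given.

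Groups came from sample titles. Values were analysed as log2(value + 5) with limma 3.58.1 in R 4.3.3 (mean-variance trend), for CREs with a mean of at least 10 in the fit, adjusted over all CREs. Time courses were called at adjusted p under 0.01 and log2 over 1, CKIs at 0.05 and 0.5. Fits of single CKIs pooled untreated with stimulated libraries. Class tests used 1 value per CKI, with run of columns as a factor. Fits were tested on simulated data. Members, gene lists and inhibitor classes were chosen with earlier results of these data known. Named were each promoter CRE, the largest called CREs, the 3 largest pathway rises and falls, and the extreme CKIs at promoters; other CREs and pairs were named after their values were seen. Replicate numbers did not pair the DMSO libraries: correlations of deviations between 36 pairs of groups were -0.09 to 0.07.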

Additional observations from a re-analysis of the deposited data

Results flagged for a closer look

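Within inhibitor classes, 6 of 80 groups of CKIs held 1 CKI apart from the others in its difference from run peers, where chance alone flags about 1 in 20 groups. Pacritinib, which ranked 3 of 10 from the lowest in library contrast of its run, was at -0.66 at Stat3_3 in late LPS among the JAK inhibitors. Encorafenib was at -1.16 at Stat5b_3 and GDC0994 at 0.35 at Stat4_4 in late LPS among the RAF/MEK/ERK inhibitors, the Encorafenib value resting on a single library at 2 h. PF04691502 was at -0.76 at Stat6_4 in late LPS among the PI3K/mTOR inhibitors. In IL-4, PH797804 (-0.49, p38) and Neratinib (-0.23, ERBB) stood apart at Stat6_4.

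The effects of LPS and IL-4 differed in the direct limma test at 9 named CREs. LPS minus IL-4 was 2.18 at Stat5a_1, 1.36 at Stat3_2 and -2.27 at Stat6_2, each at 2 h, and -1.04 at Stat6_4 at 2 h. It was 1.25 at Stat3_3 and 1.08 at Stat4_4 at 4 h, -2.51 at Stat2_1 at 1 h, and -1.16 at Stat2_2 and -1.31 at Stat5b_3 at 0.5 h. The cause of these differences was not tested.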

How the results depend on the processing

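Of the counts under alternatives, 238 stayed within 1.5 times the reported value and 32 did not. The 238 include class tests with 0 calls in both the main fit and the alternative. Of the values at named CREs, 267 kept their direction and side of the threshold, 4 lost the call and 1 gained it. None reversed. With the size limit at a log2 of 0.5, calls rose from 3 to 9 in DMSO IL-4, from 11 to 20 and from 2 to 8 in CKI cells after LPS and IL-4, and from 12 to 20 for pathway promoters after LPS. Quantile normalization left 3 of 5 pathway promoters after IL-4. Leaving out 1 library gave 14 to 16 after LPS, 3 to 5 after IL-4, 15 to 18 for LPS against IL-4, and 11 to 13 and 4 to 5 for the pathway. Leaving out all DMSO libraries of 1 replicate number gave 325 to 350 (LPS) and 413 to 462 (IL-4) pairs against DMSO.

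Pairs against DMSO numbered 433 after LPS, 45 with quantile normalization, 207 with a size limit of 1 and 67 with library contrast as a covariate. After IL-4 they numbered 503, 68, 313 and 52. Pairs against run peers after LPS were 20, but 13 with a pseudocount of 20, 4 with a size limit of 1, 9 with contrast as a covariate, 39 against all other CKIs and 8 without PH797804. After IL-4 they were 17, and 4, 10, 54 and 9 under the last 4 of these settings. The p38 class gave 1 call in late LPS, 0 with a pseudocount of 1, over all 4 times, without the run term or with contrast, 3 with a pseudocount of 20, 7 with quantile normalization and 0 to 13 when 1 CKI was left out. Fits with library contrast or without PH797804 were chosen after seeing the data, and the cause of these shifts was not tested. For pairs, the share over all pairs was not counted under these settings.

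With the replicate number as a block, 15 STAT CREs were called after LPS, 3 after IL-4 and 17 for LPS against IL-4, and pathway promoters gave 12 and 5, the same counts as without it. Each named CRE kept its side of the threshold, and the identity of the other calls was not compared. Depth is unknown, and most CKIs had 1 library per time.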
